A study of Mus musculus with 6 samples.

Results

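S phase is the part of the cell cycle in which a cell copies its DNA. The genes described here are 40 genes of DNA replication and of entry into S phase, chosen by name. They cover the licensing of origins, the MCM helicase, the DNA polymerases, the sliding clamp and its loader, the joining of DNA fragments, the supply of deoxynucleotides, fork protection, the E-type cyclins and the transcription factor E2f1. All 40 were found among the 38896 genes listed, by the sum of the transcripts that carry the same symbol, and all 40 passed the filter on low counts that left 19869 genes for testing.

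The cells were fibroblasts, the connective-tissue cells of the gut wall, isolated from distal colon at a mouse age of 6 weeks and grown for 2 passages. They then spent 24 h in control conditioned medium (label Ctrl, here control) or in inflammatory conditioned medium, to which the label DSS was assigned here. DSS commonly stands for dextran sulfate sodium, which damages the colon lining and is given to mice as a colitis model. The sources used here do not give the strain, the sex or the making of the media, and the labels list control and DSS as a genotype. By the sample titles, 3 animals (1716, 1717 and 1718) each gave a control and a DSS library. Thus n = 3 in each group, and the groups are paired by animal.

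Replication starts at origins, which are bound by the origin recognition complex and loaded with inactive MCM helicases in G1 phase. Cyclin-dependent kinases, with cyclin E among their partners, then help to fire the origins, and polymerases, clamp and ligase copy the strands. Many of these genes are transcribed in late G1 by E2F factors once the retinoblastoma protein lets go of them. In bulk RNA, fewer cells in S phase and less RNA per cell in S phase cannot be told apart.

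The libraries held 17293680 to 19482938 estimated counts, and the 40 genes together took 8021 to 17452 of these. Levels are given as CPM, counts scaled to library size after TMM normalisation, with the values of mice 1716, 1717 and 1718 in that order. The change of a gene is its fitted log2 fold change (DSS over control) ± SE from edgeR's quasi-likelihood test with the mouse as a block, and a gene is said to fall or rise where its p, adjusted over all 19869 genes, was under 0.05. All 10 fibroblast markers checked were expressed, from Lum at 24.6 to 37.5 CPM up to Col1a1 at 7385 to 19685 CPM. Markers of other cells were present too. The summed level of 9 macrophage and leukocyte markers was 945 to 2180 CPM, most of it Lyz2. That of 4 glial markers was 59.4 to 323 CPM. The sum of 4 smooth muscle and pericyte markers was 921 to 1248 CPM, and that of 6 endothelial markers was 12.5 to 21.8 CPM. The 8 epithelial markers summed to 2.79 to 5.48 CPM. Epcam, which is among them, and Cd3e, a marker of T cells, were at 0.114 CPM or less.

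Replication genes were lower in DSS. Of the 40 genes 25 fell and none rose, with a median log2 fold change of -0.44, while 12.7% of all genes tested fell, 12.3% rose and the median of all genes was 0.01. At an unadjusted p under 0.05, 34 genes were lower and 0 higher in edgeR, and DESeq2 and limma-voom called 0 higher. Of all 19869 genes tested, 7359 had an unadjusted edgeR p under 0.05 in either direction. The fitted changes of the 40 genes ran from -0.69 to 0.16, so the falls were shallow: Dut, the gene with the lowest value, was 1.62-fold lower. The summed level of the 40 genes was 884, 641 and 620 CPM in control and 709, 455 and 507 CPM in DSS. In each mouse the DSS sum was thus below the control of the same animal, by 19.9%, 29.0% and 18.2%.

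The pairing by mouse carried most of these calls. Mouse 1716 had the highest level of the 3 controls for 39 of the 40 genes and the highest of the 3 DSS libraries for 38, and its DSS library lay above the controls of both other mice for 28 genes. Of the 40 genes 35 were lower in DSS in each of the 3 mice, against 28.5% of all genes tested. All 3 DSS libraries lay below all 3 controls for 5 genes only (Rfc4, Tyms, Dut, Tipin and Ccne1), or 12.5% of the 40, against 16.5% of all genes tested. Without the block 3 of the 40 genes fell (Dut, Tipin and Ccne1), against 5.91% of all genes tested, and none rose, against 7.37%. The other 22 genes had edgeR adjusted p from 0.0647 to 0.504. With the block, leaving out an animal left 20 (1716), 15 (1717) or 16 (1718) genes that fell, and DESeq2 on all libraries left 14. Among all genes tested, 2375 of 19941 (1716), 1810 of 19926 (1717), 1422 of 20091 (1718) and 1571 of 19869 (DESeq2) fell. In the main fit it was 2518 of 19869, so the count that fell was smaller over all genes too. A set of 11 genes fell in each of the 9 fits that used the block: Mcm3, Mcm4, Mcm5, Mcm6, Pole, Rfc5, Rrm1, Rrm2, Dut, Ccne1 and Uhrf1.

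**Figure D1:**
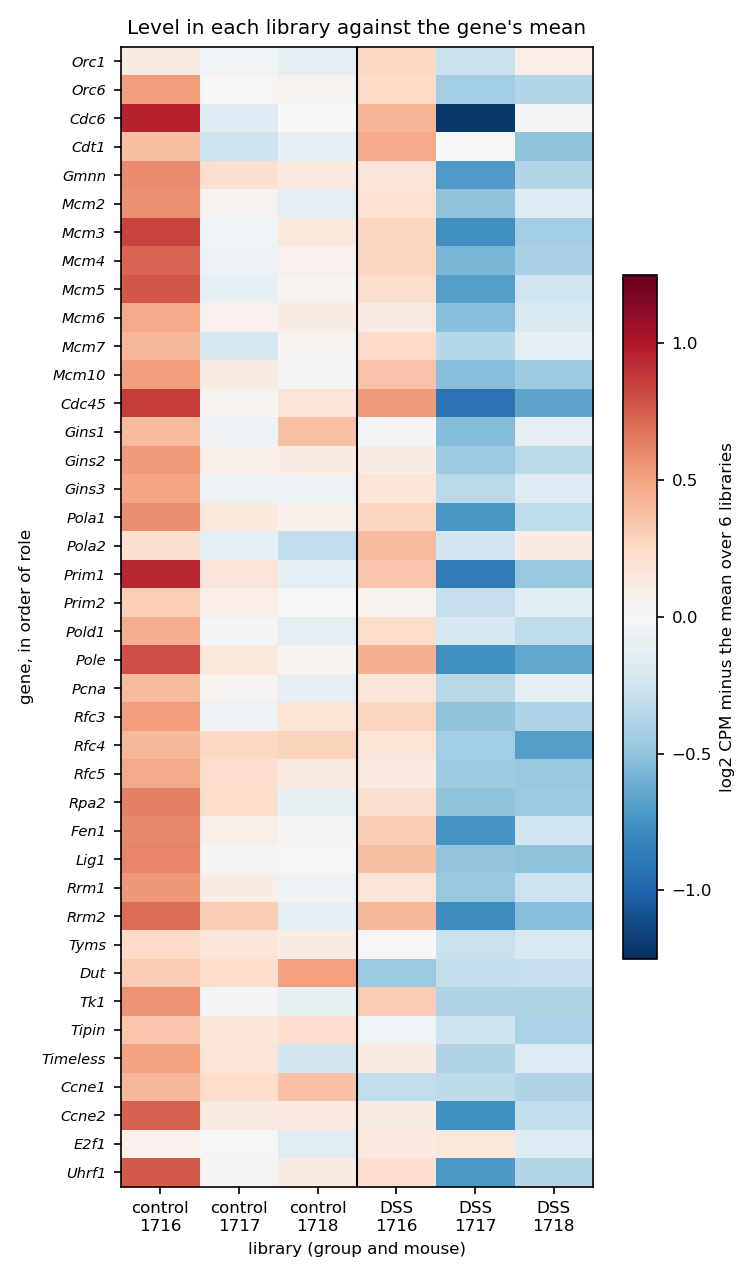
Level of each of the 40 genes in each library, as log2 CPM minus the gene's mean over the 6 libraries (colour; rows are genes in order of role, columns are libraries). The control of mouse 1716 is the reddest column, the DSS library of the same mouse is redder than the other DSS libraries for most genes, and values run from -1.20 to 0.96.

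**Figure D2:**
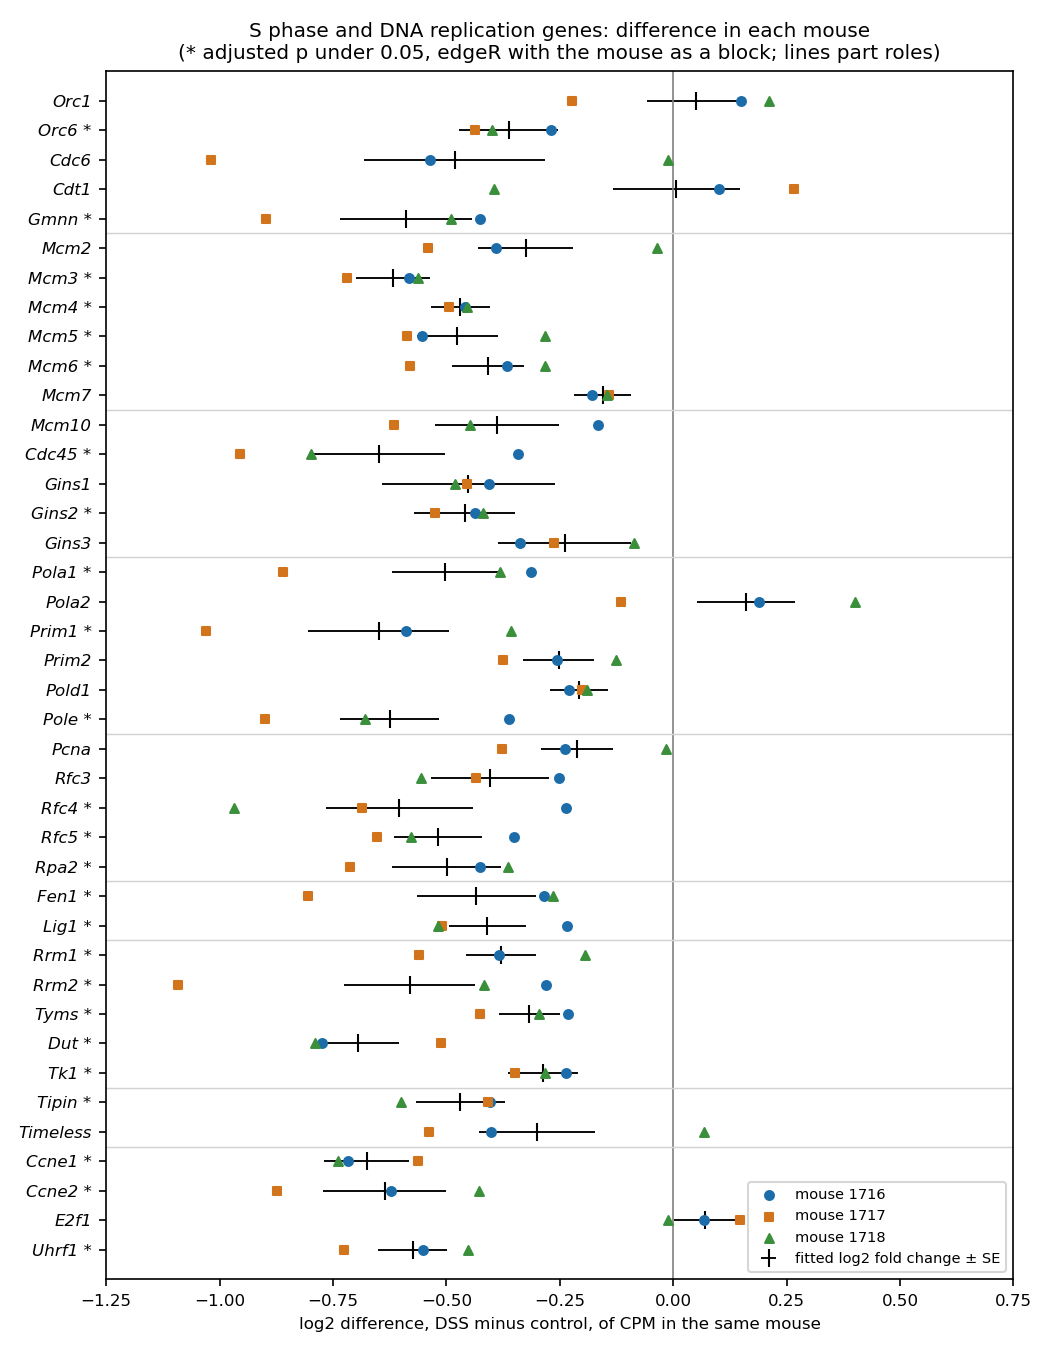
Difference in log2 CPM between the DSS and the control library of the same mouse (coloured symbols) for each gene, with the fitted log2 fold change ± SE (black). For 35 genes all 3 symbols lie left of 0, and the genes with a star, 25 in all, passed the test.

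The MCM helicase, the ring of 6 related proteins that unwinds DNA at the fork, fell for 4 of its subunits. Mcm3 was at 25.6, 13.8 and 15.6 CPM in control and 17.1, 8.34 and 10.6 CPM in DSS (log2 fold change -0.62 ± 0.08, edgeR adjusted p = 0.00174). Every mouse fell by a similar step, but the DSS library of mouse 1716 stood above the controls of the others. Mcm4 was at 36.9, 21.2 and 23.1 CPM in control and 26.9, 15.04 and 16.8 CPM in DSS. It fell by 0.47 ± 0.07 on the log2 scale (edgeR adjusted p = 0.00232), with differences of -0.46, -0.49 and -0.46 in the 3 mice. Mcm5 and Mcm6 fell by 0.48 ± 0.09 and 0.41 ± 0.08 (edgeR adjusted p = 0.00793 and 0.00934). The remaining subunits did not pass. Mcm2 had a log2 fold change of -0.33 ± 0.11 (edgeR adjusted p = 0.0616; 0.0289 without mouse 1718), and in mouse 1718 its level was 16.2 CPM in control and 15.8 CPM in DSS. Mcm7 was at 36.2, 23.3 and 27.7 CPM in control and 32.0, 21.1 and 25.0 CPM in DSS, a log2 fold change of -0.16 ± 0.06 (edgeR adjusted p = 0.114). Its 3 differences, -0.18, -0.14 and -0.14, had the same sign, and its fitted change was the smallest in size of the 6 subunits. In the same ring, then, the fitted change ran from -0.16 to -0.62, and the difference between subunits was not tested.

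E2F factors bind a short element that many replication genes carry before their start, so the promoters in RefSeq's table for GRCm38.p6 (250 bases before and 50 bases from the start on) were searched on both strands for TTTCCCGC, TTTGGCGC, TTTCGCGC and TTTGCCGC. Of the 40 genes 32 were matched by symbol. At least 1 of these letter strings was held by 13 of the 32 (40.6%), against 3.84% of the 15042 tested genes in the table and 2.61% of all 27025 genes in it. The share was not higher among genes that fell: 6 of the 19 matched genes that fell held one, and so did 7 of the 13 that did not pass. These counts describe letters in a window, not binding. The 190 bases before the start of 4 genes are printed here 5′ to 3′ with the matched letters in capitals, because they show genes with the letters that fell (Mcm5, Mcm6, Uhrf1) beside a gene with the letters that did not pass (Orc1). Where strings on opposite strands overlap, as in Mcm5 and at the first match in Mcm6, the capitals run together. The table lists starts by transcript, and a start can lie inside the gene. Uhrf1 has 2 listed promoters: the one at the first base of the gene (chr17:56303147-56303336) holds none of the letters, and the one printed belongs to a start further inside. The Orc1 promoter, the 1 listed for that gene, also lies inside its annotated span, which begins at base 108575705 of chromosome 4. For Mcm5 the end of the printed stretch lies inside the gene's annotated span, which begins at base 75109468 of chromosome 8.
Mcm5, chr8:75109319-75109508, plus strand: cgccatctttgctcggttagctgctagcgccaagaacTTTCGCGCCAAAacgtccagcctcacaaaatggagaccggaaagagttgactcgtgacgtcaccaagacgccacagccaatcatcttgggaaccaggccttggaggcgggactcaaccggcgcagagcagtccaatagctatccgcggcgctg
Mcm6, chr1:128359706-128359895, minus strand: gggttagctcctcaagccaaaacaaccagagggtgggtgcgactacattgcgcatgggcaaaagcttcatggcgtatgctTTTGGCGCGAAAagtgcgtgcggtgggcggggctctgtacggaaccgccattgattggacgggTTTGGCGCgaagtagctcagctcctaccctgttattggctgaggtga
Uhrf1, chr17:56304123-56304312, plus strand: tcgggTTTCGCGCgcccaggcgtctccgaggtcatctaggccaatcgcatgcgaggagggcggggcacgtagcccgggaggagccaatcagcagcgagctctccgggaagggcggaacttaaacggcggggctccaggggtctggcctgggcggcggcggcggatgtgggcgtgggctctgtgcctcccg
Orc1, chr4:108579264-108579453, plus strand: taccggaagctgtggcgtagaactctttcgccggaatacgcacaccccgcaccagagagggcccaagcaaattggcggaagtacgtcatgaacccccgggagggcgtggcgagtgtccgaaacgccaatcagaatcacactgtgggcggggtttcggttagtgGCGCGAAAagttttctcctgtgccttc

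Among the 5 genes of origin recognition and licensing 2 fell. Gmnn, which encodes geminin, the inhibitor of Cdt1 that keeps origins from being licensed again, was at 6.99, 5.32 and 5.04 CPM in control and 5.19, 2.84 and 3.59 CPM in DSS (log2 fold change -0.59 ± 0.15, edgeR adjusted p = 0.0244). Orc6, a subunit of the origin recognition complex, fell by 0.36 ± 0.11 (edgeR adjusted p = 0.0486), a call lost in 7 of the other 8 fits with the block (adjusted p = 0.052 to 0.308). Gmnn lost its call without mouse 1717 (0.0925), without mouse 1718 (0.0717) and by DESeq2 (0.12). The other members showed no common direction. Orc1, the largest subunit of the same complex, was at 13.4, 12 and 11.4 CPM in control and 14.9, 10.3 and 13.2 CPM in DSS (edgeR adjusted p = 0.779), higher in 2 mice and lower in 1. Cdt1, which brings MCM to the origin, was at 10.5, 6.79 and 7.57 CPM in control and 11.3, 8.17 and 5.75 CPM in DSS. Its log2 fold change was 0.01 ± 0.14, with a sign that changed with the scaling (below 0 with DESeq2's size factors), and the libraries of the groups overlapped. Cdc6, the other loading factor, was at 6.38, 2.90 and 3.27 CPM in control and 4.39, 1.42 and 3.24 CPM in DSS, almost level in mouse 1718. It did not pass (-0.48 ± 0.20, edgeR adjusted p = 0.127).

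The factors that switch on the helicase were at 1.19 to 11.7 CPM, and 2 of 5 fell. Cdc45, which joins MCM and the GINS complex in the active helicase, was at 11.7, 6.52 and 7.05 CPM in control and 9.19, 3.35 and 4.04 CPM in DSS (log2 fold change -0.65 ± 0.15, edgeR adjusted p = 0.0172; 0.078 without mouse 1718). The GINS subunit gene Gins2 fell by 0.46 ± 0.11 (edgeR adjusted p = 0.0216), with nearly equal differences of -0.44, -0.53 and -0.42, and lost its call when any 1 mouse was left out (0.0589 to 0.0833) and by DESeq2 (0.174). Gins1 had a like fitted change of -0.45 ± 0.19 at 1.19 to 2.28 CPM and did not pass (edgeR adjusted p = 0.132). Its SE was larger than that of Gins2. Gins3 and Mcm10, a factor needed for the helicase to start unwinding, had log2 fold changes of -0.24 ± 0.15 and -0.39 ± 0.14 and did not pass (edgeR adjusted p = 0.29 and 0.0789).

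Of 6 genes of DNA polymerases and primase 3 fell. Pole, the catalytic subunit of the polymerase that copies the leading strand, was at 32.0, 20.1 and 18.7 CPM in control and 24.9, 10.7 and 11.7 CPM in DSS (log2 fold change -0.63 ± 0.11, edgeR adjusted p = 0.00597). The fall was smaller in mouse 1716 (-0.36) than in mice 1717 and 1718 (-0.90 and -0.68). In the complex that lays down primers, the genes of the catalytic subunits fell: Pola1 by 0.50 ± 0.12 (edgeR adjusted p = 0.0203; 0.0582 without mouse 1717), and Prim1, the primase, by 0.65 ± 0.15 (edgeR adjusted p = 0.0209). Prim1 lost its call without mouse 1716 (0.0538), without mouse 1717 (0.0661) and by DESeq2 (0.0738). Their accessory partners did not pass. Pola2 was at 17.1, 13.6 and 11.98 CPM in control and 19.5, 12.6 and 15.8 CPM in DSS (0.16 ± 0.11, edgeR adjusted p = 0.335), the highest fitted value of the 40 genes. Prim2 had a log2 fold change of -0.25 ± 0.08 (edgeR adjusted p = 0.056). Pold1, the catalytic subunit of the lagging-strand polymerase, differed by -0.23, -0.20 and -0.19 in the 3 mice (-0.21 ± 0.06, edgeR adjusted p = 0.0525). Prim2 and Pold1 passed with DESeq2's size factors in the same fit (edgeR adjusted p = 0.0487 and 0.0478).

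Around the sliding clamp 3 of 5 genes fell. Rfc5, a subunit of the clamp loader, was at 16.5, 13.8 and 12.8 CPM in control and 13.0, 8.74 and 8.59 CPM in DSS (log2 fold change -0.52 ± 0.10, edgeR adjusted p = 0.00785). Rfc4, another subunit, was at 7.40, 6.69 and 6.82 CPM in control and 6.28, 4.14 and 3.47 CPM in DSS, groups that did not overlap, and fell by 0.60 ± 0.16 (edgeR adjusted p = 0.0326). Rpa2, a subunit of the protein that coats single-stranded DNA, fell by 0.50 ± 0.12 (edgeR adjusted p = 0.0212). Rfc4 and Rpa2 lost their calls without mouse 1717 (0.0855 and 0.0909), without mouse 1718 (0.153 and 0.0534) and by DESeq2 (0.0877 and 0.122). The clamp itself, Pcna, a common marker of dividing cells, did not pass. It was at 46.7, 36.4 and 33.0 CPM in control and 39.5, 28.0 and 32.7 CPM in DSS (-0.21 ± 0.08, edgeR adjusted p = 0.0969), with almost no difference in mouse 1718 (-0.02). Rfc3 had a log2 fold change of -0.40 ± 0.13 (edgeR adjusted p = 0.061).

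Both genes that finish the lagging strand fell, the flap nuclease Fen1 by 0.43 ± 0.13 (edgeR adjusted p = 0.0492) and the DNA ligase Lig1 by 0.41 ± 0.09 (edgeR adjusted p = 0.0125; 0.0753 without mouse 1718). Lig1 was at 28.9, 19.2 and 19.1 CPM in control and 24.6, 13.5 and 13.3 CPM in DSS. The call of Fen1 was close to the threshold and was lost in 6 of the other 8 fits with the block (adjusted p = 0.0519 to 0.179).

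All 5 genes of deoxynucleotide supply fell, the only group with more than 2 genes in which each member passed. Rrm2, the small subunit of ribonucleotide reductase, whose level follows S phase, was at 47.5, 36.3 and 27.0 CPM in control and 39.1, 17.03 and 20.2 CPM in DSS (log2 fold change -0.58 ± 0.14, edgeR adjusted p = 0.025). Its difference was -1.09 in mouse 1717 against -0.28 and -0.42 in mice 1716 and 1718. Rrm1, the large subunit of the same enzyme, was at 109, 79.4 and 71.1 CPM in control and 83.4, 53.9 and 62.2 CPM in DSS (-0.38 ± 0.08, edgeR adjusted p = 0.0111). Dut (gene ID 110074, chr2:125247248-125259049 in GRCm38.p6), which breaks down dUTP and so keeps uracil out of DNA, was the 1 gene of the 40 whose highest control was not mouse 1716. It was at 18.1, 16.9 and 20.7 CPM in control and 10.6, 11.9 and 11.95 CPM in DSS (-0.69 ± 0.09, edgeR adjusted p = 0.00168; 0.00708 without the block). The groups did not overlap, and the call held without the pairing. Tyms, which makes thymidylate, was at 37.0, 35.0 and 33.5 CPM in control and 31.6, 26.0 and 27.3 CPM in DSS, also without overlap (-0.32 ± 0.07, edgeR adjusted p = 0.0129). Tk1, the thymidine kinase of dividing cells, fell by 0.29 ± 0.08 (edgeR adjusted p = 0.0344). Tyms lost its call without mouse 1717 (0.0683), without mouse 1718 (0.0635) and by DESeq2 (0.0662), and Tk1 when any 1 mouse was left out (0.0632 to 0.134) and by DESeq2 (0.247). A pseudogene, Tyms-ps, was listed at 0.745 to 1.53 CPM, and reads shared with it could be counted for either.

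Of the pair that holds the fork steady when it stalls, Tipin fell and its partner Timeless did not pass. Tipin was at 12.2, 10.6 and 11.1 CPM in control and 9.19, 8.004 and 7.28 CPM in DSS (log2 fold change -0.47 ± 0.10, edgeR adjusted p = 0.0124), and it passed without the block as well (0.0447). It lost its call without mouse 1718 (0.0805) and by DESeq2 (0.0776). Timeless was at 15.3, 12.1 and 9.17 CPM in control and 11.6, 8.29 and 9.62 CPM in DSS (-0.30 ± 0.13, edgeR adjusted p = 0.137; 0.0464 without mouse 1718), with a difference above 0 in mouse 1718.

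Both E-type cyclins, the partners of Cdk2 at the start of S phase, fell. Ccne1 (gene ID 12447, chr7:38097984-38107490 in GRCm38.p6) was at 13.6, 12 and 13.1 CPM in control and 8.27, 8.12 and 7.85 CPM in DSS (log2 fold change -0.68 ± 0.09, edgeR adjusted p = 0.00222; 0.00541 without the block). The SD over mice was 0.835 CPM in control against 0.213 CPM in DSS, and the groups did not overlap. Ccne2 was at 8.72, 5.64 and 5.68 CPM in control and 5.65, 3.07 and 4.21 CPM in DSS (-0.64 ± 0.13, edgeR adjusted p = 0.0132; 0.0627 by DESeq2). Uhrf1, which brings the maintenance DNA methyltransferase to newly copied DNA, was at 41.2, 24.4 and 25.8 CPM in control and 28.1, 14.8 and 18.8 CPM in DSS (-0.57 ± 0.08, edgeR adjusted p = 0.00178). E2f1, the transcription factor that drives many of these genes, was at 26.2, 25.0 and 22.6 CPM in control and 27.4, 27.8 and 22.5 CPM in DSS. Its log2 fold change was 0.07 ± 0.07 (edgeR adjusted p = 0.511), and its libraries overlapped.

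**Figure D3:**
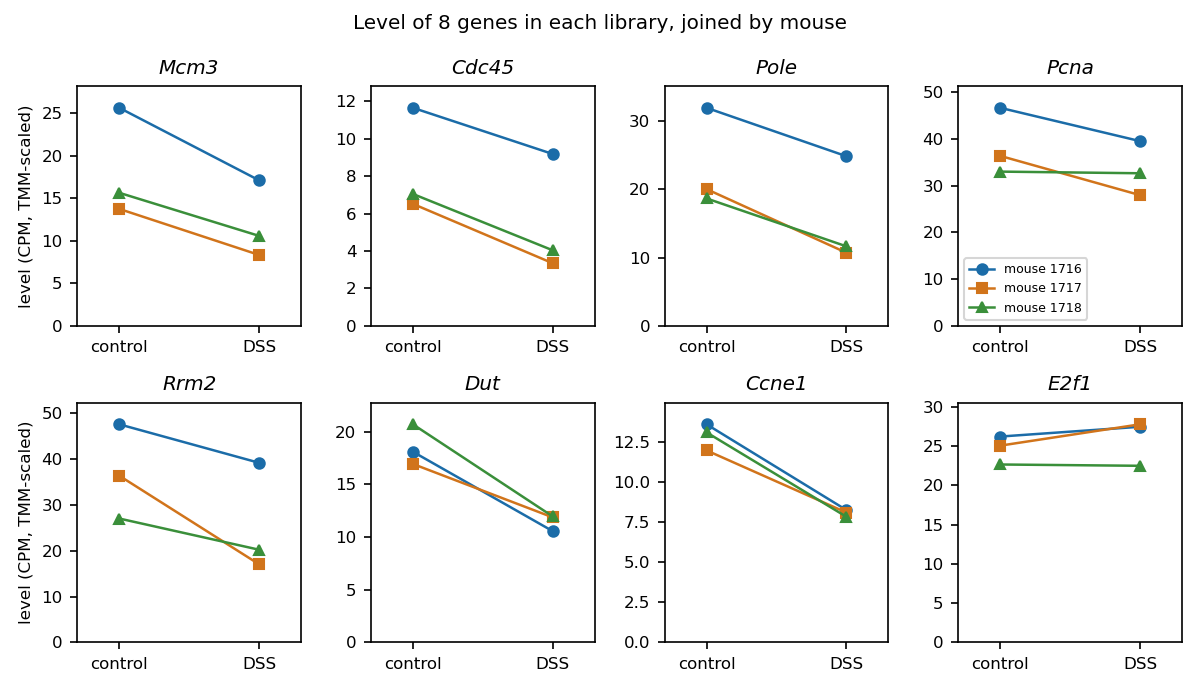
Level (CPM) of 8 of the genes in control and DSS, 1 line for each mouse. Mcm3, Cdc45, Pole and Rrm2 fall in each mouse from different starting levels with mouse 1716 on top, Dut and Ccne1 fall to nearly the same level in all 3 mice, Pcna is almost level in mouse 1718, and E2f1 stays between 22.5 and 27.8 CPM.

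Each value above is a sum over transcripts. From 1 to 12 transcripts were listed for a gene, and 9 of the 13 genes with 1 listed transcript fell. These were Mcm4, Gins2, Prim1, Rfc4, Rfc5, Rpa2, Rrm1, Rrm2 and Ccne1. Their calls do not depend on how reads were shared between listed transcripts of the same gene. Reads could still be shared with other genes, and Gins2 and Rfc4 had estimated counts that were not whole. Where several transcripts were listed, the estimated shares moved between libraries of the same group. The leading control transcript of Mcm10, for example, took 93.4%, 86.3% and 18.02% of the gene's counts in control and 48.3%, 39.1% and 59.1% in DSS. For Dut, with 2 transcripts, the leading one took 63.0%, 66.2% and 78.4% in control and 66.4%, 61.7% and 69.1% in DSS. These shares are estimates, and differences between isoforms were not tested.

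Other genes of the same pathway followed in part. From a list of 60 further replication genes, 20 fell (33.3%) and 3 rose (median -0.23). Of all genes tested 12.7% fell and 12.3% rose, so the share of these genes that rose was below that of all genes. Among the falls with the smallest p were Brca2, a gene of DNA repair by recombination, Pclaf, a partner of the clamp, and the chromatin remodeller Hells, with log2 fold changes of -0.78, -0.73 and -0.58 (edgeR adjusted p = 0.00217 to 0.00557, and 0.0759 to 0.151 without the block). The rises were Samhd1, Pold4 and Orc5. Samhd1, an enzyme that breaks down deoxynucleotides and restricts viruses, was at 61.7, 51.8 and 55.3 CPM in control and 304, 100 and 284 CPM in DSS (1.89 ± 0.26, edgeR adjusted p = 0.00201; 0.013 without the block). Its direction was opposite to that of all 5 genes of deoxynucleotide supply above. Pold4 and Orc5 rose by 0.39 ± 0.10 and 0.26 ± 0.08. Pold4 lost its call without mouse 1716 or 1717 (edgeR adjusted p = 0.0906 and 0.104), and Orc5 without mouse 1717 or 1718 (0.128 and 0.278), and both by DESeq2 (0.0987 and 0.326). The count that fell was 1 without the block, 13 by DESeq2 and 8 without mouse 1718. The count that rose was 1 without the block, by DESeq2 and without mouse 1717. Of all genes tested 5.91% fell and 7.37% rose without the block.

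Among 30 regulators of the G1 to S step (retinoblastoma, E2F, D-type cyclins, kinases and their inhibitors) 11 fell and 4 rose, with a median of -0.09. Of all genes tested 12.7% fell and 12.3% rose, so the share of these regulators that rose was near that of all genes. Ccnd3, a D-type cyclin, was at 82.0, 78.3 and 75.8 CPM in control and 60.1, 55.7 and 56.1 CPM in DSS (-0.46 ± 0.05, edgeR adjusted p = 0.00116; 0.00534 without the block). Ccna2, the cyclin of S and G2 phase, fell by 0.96 ± 0.12 (edgeR adjusted p = 0.00123; 0.0731 without the block). Tfdp1, the partner protein of E2F factors, fell by 0.39 ± 0.06 (edgeR adjusted p = 0.00321; 0.0318 without the block). The genes that rose were the kinase inhibitors Cdkn2b (0.41 ± 0.06) and Cdkn2a (0.52 ± 0.10), Myc (0.36 ± 0.08) and E2f6, an E2F family repressor (0.35 ± 0.08). None of these 4 passed without the block (edgeR adjusted p = 0.125 to 0.348). Without mouse 1718 Cdkn2b alone of the 4 kept its call and 7 genes fell, and without mouse 1717 E2f6 lost its call (edgeR adjusted p = 0.0926). Cdkn2a, Myc and E2f6 also lost their calls by DESeq2 (DESeq2 adjusted p = 0.0753, 0.062 and 0.0834). The inhibitor Cdkn2d fell by 0.64 ± 0.09 (edgeR adjusted p = 0.00235, and 0.1 without the block). In the fit with the block, inhibitors of the same family thus went in both directions.

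Of 40 genes of the later phases, G2 and mitosis, 39 fell (median -0.80), against 12.7% of all genes tested. Their fitted changes ran from -1.09 to 0.15. Kif20a, a kinesin of cell division, was at 71.1, 59.1 and 52.1 CPM in control and 38.6, 27.2 and 24.0 CPM in DSS (-1.04 ± 0.07, edgeR adjusted p = 0.000135; 0.0131 without the block). Cdc20, Ccnb2 and Plk1, which drive mitosis, fell by 1.09 ± 0.07, 1.05 ± 0.10 and 0.85 ± 0.07, Plk1 with an edgeR adjusted p of 0.0678 without the block. The gene that did not pass was Pttg1, at 0.15 ± 0.09, named after its value was seen. Without the block 8 of the 40 fell, against 5.91% of all genes tested. The difference in size between S phase genes and those of G2 and mitosis was not tested. E2F-type letters stood in the promoters of 2 of 35 matched genes of G2 and mitosis. The strings TTTGAA and TTCGAA, an element named CHR that mitotic genes carry, stood in 25 of them (71.4%), in 6 of the 32 replication genes (18.8%) and in 18.4% of tested genes.

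**Figure D4:**
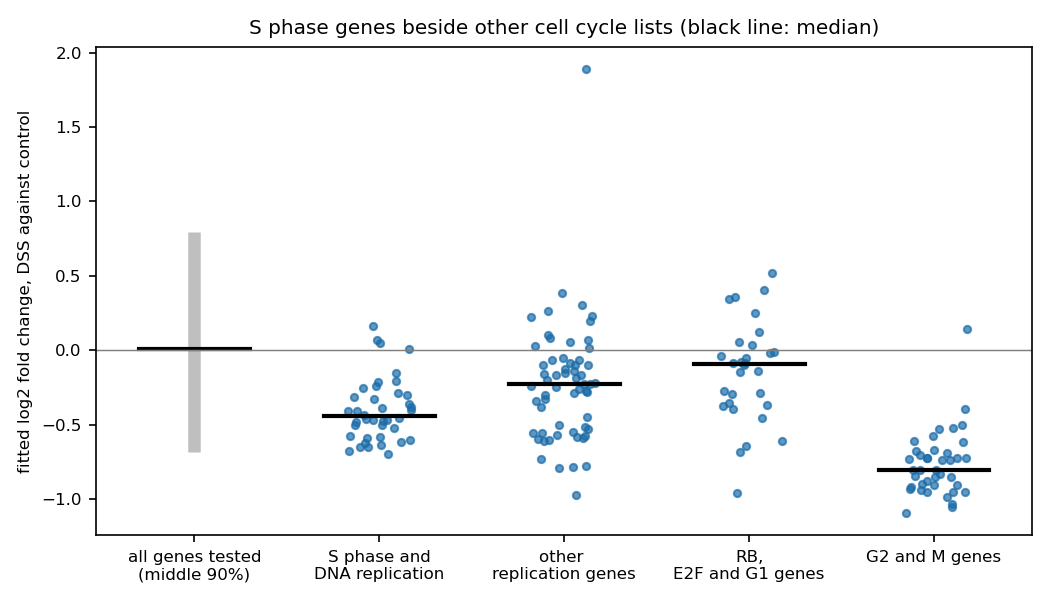
Fitted log2 fold change of DSS against control for each gene of 4 lists (points; black line, median), beside all genes tested (grey bar, the middle 90% of genes, from -0.68 to 0.80). The medians are -0.44 for the S phase and DNA replication genes, -0.23 for other replication genes, -0.09 for regulators of the G1 to S step and -0.80 for genes of G2 and mitosis, and the highest point is Samhd1.

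Marker lists moved too. Their counts, from short lists, stand beside 12.7% of all genes tested that fell and 12.3% that rose. Of the 10 fibroblast markers 7 fell and 2 rose, and their sum was 43423, 49208 and 52063 CPM in control and 29636, 28457 and 25453 CPM in DSS. Of 4 smooth muscle and pericyte markers 3 fell and 1 rose. The summed level of the 4 glial markers was 323, 229 and 95.8 CPM in control and 261, 138 and 59.4 CPM in DSS. Of these 4 markers 2 fell, and the median log2 fold change of the 4 was -0.49. Gfap, named after its value was seen, had the largest fall of the 4, by 1.67 ± 0.13. The sum was highest in mouse 1716 in both groups, as was that of the replication genes. The 9 macrophage and leukocyte markers summed to 1475, 2180 and 2015 CPM in control and 970, 1450 and 945 CPM in DSS, with 3 that fell and 1 that rose of 7 tested, and were lowest in mouse 1716 within control. The part of these cells in the change of the replication genes was not tested.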

How the data were processed

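RNA of 6 cultures was sequenced as rRNA-depleted directional libraries, per the labels' protocols. The authors deposited estimated counts per transcript, not scaled. Kallisto, GRCm38 and mm10 are named in the submitters' processing notes, and no source used here gives the version or settings. Of the values above 0, 84.5 to 84.8% in a library were not whole (tolerance 1e-06).

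Estimated counts were summed per symbol, rounded and filtered by filterByExpr. A gene needed at least 10 counts, scaled to library size, in as many libraries as the smaller group held, and 15 counts in total. The counts were then TMM-scaled and tested in R 4.3.3 by edgeR 4.0.16 (quasi-likelihood, mouse as a block, Benjamini-Hochberg over 19869 genes, threshold 0.05). The SE is the size of the log2 fold change divided by the square root of F. Differences within a mouse use 0.5 added counts. The alternatives were DESeq2 1.42.0, limma-voom 3.58.1, 2 other scalings, no filter, no block and left-out mice or libraries. Summaries and figures used Python 3.11.15 with matplotlib 3.10.9. On 1 set of simulated counts with known changes, larger folds were recovered more often than small ones. The share of false calls there was above the threshold of 0.05. The simulated counts went through the main fit, with the mouse as a block, so more of its calls may be false than the threshold states. The labels do not say that cultures were otherwise independent.

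The same mice gave both groups. Across genes, the control and the DSS library of one mouse deviated together from their group means (r = 0.33, 0.20 and 0.44). Those of different mice had r = -0.34 to 0.03. Deviations from a group's own mean cancel out for each gene, so a positive r within mice pulls the r between mice down. Libraries of a group differed by more than counting noise (chi-square per degree of freedom 9.71 to 22.2).

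The members and lists were chosen with earlier results of these data known. All 40 members could be named, and from each other list the 4 called genes with the smallest p in each direction. Some genes that this rule takes in are not reported here.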

Additional observations from a re-analysis of the deposited data

How the results depend on the processing

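The median change of the 40 replication genes stayed below 0 in every fit, while the number of calls did not hold. Over 8 alternatives with the mouse as a block (2 other scalings, DESeq2, limma-voom, no filter and each mouse left out) none of the 40 genes rose and 14 to 27 fell. Without the replicate block 3 fell, 1465 genes in all rose and 1174 fell. Of the further replication genes 1 rose and 1 fell, of the G1 to S regulators 0 rose and 3 fell, and of genes of G2 and mitosis 8 fell. The block changed the call of 22 of the 40 genes. By DESeq2 14 of the 40 fell, 1473 genes in all rose and 1571 fell, 1 and 13 further replication genes rose and fell, and 1 regulator rose. Without 1 mouse, with the block, 15 to 20 of the 40 fell, 1357 to 2304 genes in all rose and 1422 to 2375 fell. The ranges over the same fits were 1 to 2 and 8 to 18 for further replication genes that rose and fell, 1 to 4 and 7 to 11 for regulators, and 35 to 39 for genes of G2 and mitosis that fell.

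Without the block and without 1 library, 2 to 10 of the 40 fell, and their median log2 fold change was -0.22 without the control of mouse 1716, -0.66 without its DSS library and -0.26 without the DSS library of mouse 1717. In those fits 769, 846, 952, 1071, 1104 or 1310 genes in all rose and 580, 648, 753, 798, 898 or 1108 fell. Further replication genes rose in 0 to 1 case and fell in 0 to 10, regulators rose in 0 to 1 and fell in 1, 2 or 3, and 2, 5 or 35 genes of G2 and mitosis fell. Some genes that were not called changed sign. Cdt1 had -0.0026 with DESeq2's size factors in edgeR, -0.012 by DESeq2, -0.12 to 0.17 without 1 mouse, and -0.11, -0.048 and -0.26 without the control of mouse 1717, the control of mouse 1718 and the DSS library of mouse 1716. Orc1 had -0.039 to 0.18 without 1 mouse and -0.065 without the DSS library of mouse 1716. Pola2 had -0.0034 without the same library, and Mcm7 had 0.028 without the control of mouse 1716. The cause of these differences was not tested. The effect of depth on the calls was not tested, and the gene with the lowest level, Gins1, was at 1.19 to 2.28 CPM.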
